A study of Homo sapiens with 6 samples.

Results

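The APOBEC3 cytidine deaminases and the deoxynucleotide hydrolase SAMHD1 were followed by RNA-seq in 6 libraries of U937, an established myeloid line of human origin that was derived from a histiocytic lymphoma and that the labels class as acute myeloid leukemia. The members were the rows of the deposited count table whose Ensembl identifiers map to the symbols of the 7 APOBEC3 genes, APOBEC3A, APOBEC3B, APOBEC3C, APOBEC3D, APOBEC3F, APOBEC3G and APOBEC3H, and to SAMHD1, which gave 8 of 60612 genes. All 8 passed the filter on low counts, which kept 17224 genes. The cells, labelled wild type, received 1 µM of a compound known here only by its code name B2, or its DMSO vehicle, for 36 h in RPMI-1640 that held no serum, after growth in medium with 10% fetal bovine serum. Each group had 3 libraries, numbered 1 to 3 in both groups. The series title names S100A9 as a target in acute myeloid leukemia, and the question the groups address is what B2 did to RNA levels. No label states whether a group's libraries are separate cultures; p-values therefore reflect the spread among the libraries sequenced, and that spread may be technical. RNA came from bulk cells, where fewer cells of a type and less RNA per cell cannot be told apart.

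APOBEC3 enzymes convert cytosine to uracil in single-stranded DNA, which mutates or blocks retroviruses and retroelements; APOBEC3A and APOBEC3B are also known as sources of mutations in tumour genomes. SAMHD1 breaks down deoxynucleoside triphosphates. It is known for limiting HIV reverse transcription in macrophages and other myeloid cells, and its antiviral activity is switched off by cyclin-dependent kinase phosphorylation in cycling cells. Interferon raises several of these genes in human monocytes and macrophages, APOBEC3A above all.

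Library totals ran from 61150740 to 78431054 counts. The 2 libraries numbered 3 stood apart from the other 4: 12 monocyte and macrophage markers reached a summed level of 1881 to 2160 CPM (counts relative to the TMM-scaled library total) in the libraries numbered 3, against 283 to 452 CPM in numbers 1 and 2, and MRC1 was listed at 0 in every library. Myeloid progenitor markers, 10 genes that include ELANE, summed to 3432 to 4996 CPM with B2 and 3377 to 5881 CPM with DMSO. Of 10 T and NK cell markers, which summed to 188 to 380 CPM with B2 and 170 to 341 CPM with DMSO, CD3D, CD3E, CD3G and KLRD1 had 0 counts in every library, while the cytotoxic granule gene NKG7 alone had 187 to 376 CPM with B2 and 169 to 340.5 CPM with DMSO. Of 7 B-cell markers, which summed to 19.6 to 26.4 CPM with B2 and 19.6 to 24.0 CPM with DMSO, MS4A1, CR2 and JCHAIN had 0 counts, while the B-lineage transcription factor PAX5 had 12.4 to 18.5 CPM with B2 and 9.16 to 16.8 CPM with DMSO. Values of 8 epithelial markers summed to 39.1 to 49.5 CPM with B2 and 4.34 to 35.5 CPM with DMSO, without overlap, and their part in the results was not tested. DMSO replicates 1 and 2 also leaned in opposite ways with base composition: across genes, deviations from the mean level had a Spearman correlation with GC content of 0.48 and -0.55 in these libraries, against 0.20, -0.27 and 0.04 in B2 replicates 1 to 3 and 0.09 in DMSO replicate 3.

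The 7 APOBEC3 genes lie in a row on the plus strand of chromosome 22, and the annotated spans of APOBEC3A and APOBEC3B overlap. Sequences of their zinc-binding motifs are shown because their identity limits how reads can be divided between the genes. In GRCh38 (GENCODE 29), APOBEC3A spans chr22:38952741-38992778, APOBEC3B chr22:38982347-38992804, APOBEC3C chr22:39014083-39020352 and APOBEC3D chr22:39021113-39033276. APOBEC3F spans chr22:39040604-39053910, APOBEC3G chr22:39077005-39087743 and APOBEC3H chr22:39097224-39104067. SAMHD1 lies on the minus strand at chr20:36889773-36951901. Each APOBEC3 protein carries 1 or 2 zinc-binding motifs, and the coding DNA of 9 of the 11 motifs found, which comes to 6 distinct stretches, is printed 5′ to 3′ from the GENCODE 29 transcripts. Capitals mark the codons of the zinc-binding histidine and cysteines and of the motif's glutamate. Whether each motif is catalytically active was not tested.
APOBEC3A motif and APOBEC3B motif 2: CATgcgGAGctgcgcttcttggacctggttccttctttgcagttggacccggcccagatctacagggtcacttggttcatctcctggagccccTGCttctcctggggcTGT
APOBEC3B motif 1 and APOBEC3F motif 1: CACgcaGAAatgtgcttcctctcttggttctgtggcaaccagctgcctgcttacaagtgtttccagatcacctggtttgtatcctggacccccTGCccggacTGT
APOBEC3C motif: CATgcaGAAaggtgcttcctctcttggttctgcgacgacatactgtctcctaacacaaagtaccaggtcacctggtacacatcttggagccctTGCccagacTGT
APOBEC3D motif 2 and APOBEC3F motif 2: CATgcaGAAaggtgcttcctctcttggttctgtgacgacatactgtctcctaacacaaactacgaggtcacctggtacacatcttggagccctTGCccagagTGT
APOBEC3G motif 2: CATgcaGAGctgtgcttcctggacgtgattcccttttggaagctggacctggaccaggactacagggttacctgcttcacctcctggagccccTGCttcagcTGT
APOBEC3H motif: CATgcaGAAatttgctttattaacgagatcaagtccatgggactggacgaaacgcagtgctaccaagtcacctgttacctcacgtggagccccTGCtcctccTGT

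The first of these stretches, 111 bases long, is identical in APOBEC3A and APOBEC3B, and 2 further identical pairs of 105 bases join APOBEC3F with APOBEC3B and with APOBEC3D. The APOBEC3C motif differed from that shared by APOBEC3D and APOBEC3F at 4 of 105 bases. APOBEC3G motif 2 and the APOBEC3H motif stood further off, with 40 bases differing between them. Over whole transcripts, 18.4% of the distinct 100-base words of APOBEC3A also occurred in APOBEC3B, and 348 exon bases of these genes overlap on the same strand. For APOBEC3D, 79.2% of words also occurred in an annotated readthrough gene, AL022318.4, which had 0 counts in all 6 libraries, and 4.82% occurred in APOBEC3F. APOBEC3F shared 8.56% of its words with APOBEC3G and 3.76% with APOBEC3D, and APOBEC3G shared 5.05% of its own with APOBEC3F. APOBEC3C and APOBEC3H shared no such word with another gene. The counting method is not given in the sources used here, so values of APOBEC3A, APOBEC3B, APOBEC3D, APOBEC3F and APOBEC3G are uncertain where reads could be split between them. SAMHD1 shares exon bases with TLDC2 on the opposite strand, which had 0 to 12 counts a library.

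Per kilobase of exon, the APOBEC3 transcripts of U937 cells were mostly those of APOBEC3B and APOBEC3C. Over the 6 libraries, levels per length averaged 52.4 ± 11.6 CPM per kb for APOBEC3B and 43.3 ± 9.0 for APOBEC3C (SD, n = 6). APOBEC3B, a nuclear enzyme with 2 zinc-binding domains, exceeded the single-domain APOBEC3C in 5 of 6 libraries, and their ranges overlapped. APOBEC3D, APOBEC3F and APOBEC3G, double-domain enzymes that are packaged into HIV particles and are targets of the viral protein Vif, followed at 4.43 ± 0.921, 2.86 ± 0.739 and 2.62 ± 0.472 CPM per kb. The range of APOBEC3D lay wholly below that of APOBEC3C. APOBEC3F exceeded APOBEC3G in 4 of 6 libraries, and in 0 of 6 when the longest transcript served as the length, so these neighbours have no settled order. With that length APOBEC3G, at 5.12 CPM per kb, also passed APOBEC3D, at 4.43, so APOBEC3D was next after APOBEC3C only with the union of exons as length. APOBEC3A, a single-domain enzyme of monocytes, averaged 1.48 ± 0.202 CPM per kb, wholly below APOBEC3G. The union of its exons is 2358 bases and its longest transcript 1478, a length that gave APOBEC3A 2.37 CPM per kb. SAMHD1 averaged 1.02 ± 0.555 CPM per kb and was below APOBEC3A in 5 of 6 libraries, with overlapping ranges. With the longest transcript as length SAMHD1 averaged 2.10 CPM per kb and was below APOBEC3A in 4 of 6 libraries. The lowest was APOBEC3H, which varies between people in protein stability, at 0.453 ± 0.245 CPM per kb.

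**Figure D1:**
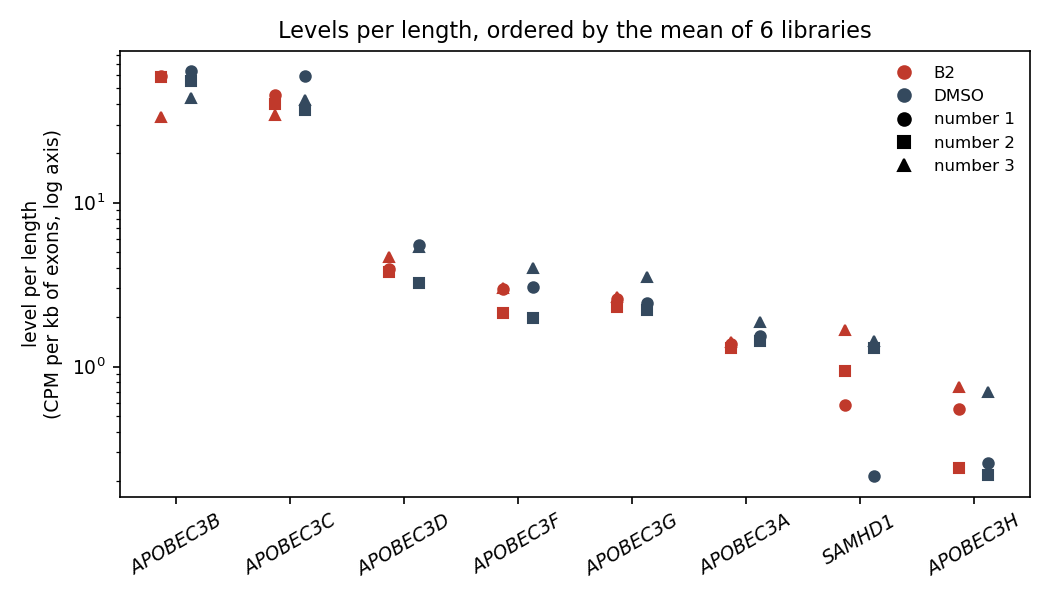
Levels per kilobase of exon (CPM per kb, log scale) of the 8 genes in each of the 6 libraries, ordered by mean; points are libraries, B2 left of DMSO. APOBEC3B and APOBEC3C sit apart above the rest, and SAMHD1 has the widest spread.

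As CPM, not adjusted for length, the 7 APOBEC3 genes summed to 280, 257 and 200 CPM in B2 replicates 1 to 3, against 331, 240 and 253 CPM in DMSO replicates 1 to 3. APOBEC3B and APOBEC3C supplied 86.6%, 87.5% and 79.9% of that sum with B2 and 87.6%, 87.3% and 79.9% with DMSO. The share was lower in both libraries numbered 3 than in the other 4. Of the wider family, APOBEC2 had 0 to 2 counts a library, and APOBEC1, which edits apolipoprotein B RNA, and APOBEC4 had 0 in every library. None of these 3 passed the filter. A count of 3 corresponds to 0.039 to 0.054 CPM, and such floors cover counting error only.

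With B2, no member passed the test, and no other gene did. In edgeR's quasi-likelihood test adjusted over all genes, 0 of 17224 genes (0%) passed 0.05, and the adjusted p was 1 for every member. At an unadjusted p below 0.05, 85 genes (0.493%) passed, with 0 of the 8 members among them. limma-voom called 0 genes and DESeq2 called 1. The members' log2 fold changes, B2 over DMSO, had a median of -0.14, beside -0.08 over all tested genes. While 6 of the 8 were negative, 2 were positive, beside 37.9% positive among all tested genes. With the replicate number as a block, 0 genes were called and 228 (1.32%) had an unadjusted p below 0.05, again with 0 members.

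APOBEC3A had 3.22, 3.04 and 3.35 CPM in B2 replicates 1 to 3, against 3.60, 3.39 and 4.39 CPM in DMSO replicates 1 to 3. Its B2 libraries all lay below its DMSO libraries, the only member with groups that did not overlap, while 1.63% of all tested genes lay that way. Of the 8 members 0 lay above DMSO in every B2 library, beside 1.94% of tested genes. Its fold change was -0.24 on the log2 scale (SE 0.31, 95% interval -0.95 to 0.46), and its differences within numbers 1, 2 and 3 were -0.16, -0.16 and -0.39. APOBEC3A counts came to 2.73% to 5.33% of APOBEC3B counts with B2 and 2.98% to 5.29% with DMSO. How reads of the bases these genes share were divided was not tested.

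APOBEC3B had 113, 111 and 62.9 CPM with B2, against 121, 105 and 83.1 CPM with DMSO, and the groups overlapped. The lowest value of each group was in replicate 3. The fold change was -0.10 (SE 0.31, interval -0.81 to 0.61). APOBEC3C, weak against HIV and abundant in many tissues, had 129, 114 and 97.3 CPM with B2, against 169, 104 and 119 CPM with DMSO. DMSO replicate 1 was highest and the groups overlapped, with a fold change of -0.21 (SE 0.28, interval -0.84 to 0.43).

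In the Vif-sensitive double-domain genes, B2 and DMSO values interleaved. APOBEC3D had 9.95, 9.61 and 11.8 CPM with B2, against 14.0, 8.21 and 13.6 CPM with DMSO, a fold change of -0.19 (SE 0.32, interval -0.92 to 0.54). APOBEC3F had 9.62, 6.84 and 9.81 CPM with B2, against 9.96, 6.45 and 13.01 CPM with DMSO, a fold change of -0.16 (SE 0.35, interval -0.98 to 0.65). In both genes replicate 2 was the lowest library of each group. APOBEC3G, the founding HIV restriction factor of the family, had 14.0, 12.5 and 14.4 CPM with B2, against 13.3, 12.03 and 19.1 CPM with DMSO. DMSO replicate 3 stood above the other 5 libraries, and the fold change was -0.12 (SE 0.30, interval -0.81 to 0.57).

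APOBEC3H was the faintest member, with 51, 22 and 57 counts in B2 replicates 1 to 3 and 18, 21 and 68 counts in DMSO replicates 1 to 3. Per TMM-scaled total these were 0.691, 0.301 and 0.941 CPM with B2, against 0.322, 0.271 and 0.876 CPM with DMSO. It was higher with B2 within each of the 3 numbers, by 1.04, 0.14 and 0.10 on the log2 scale, while the groups overlapped. Its fold change of 0.39 had an SE of 0.67 and an interval of -1.14 to 1.92, and was 0.01 without B2 replicate 3 and 1.12 without DMSO replicate 3. SAMHD1 had 6.52, 10.5 and 18.9 CPM with B2, against 2.40, 14.7 and 16.1 CPM with DMSO. The replicates of one group differed more than the groups did: the means were 11.98 ± 6.33 CPM in B2 libraries and 11.1 ± 7.54 CPM in DMSO libraries (SD, n = 3 each). Its fold change was 0.11 (SE 0.67, interval -1.43 to 1.66), and 0.38 (SE 0.36) with the replicate block, with an edgeR adjusted p of 1 in both.

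**Figure D2:**
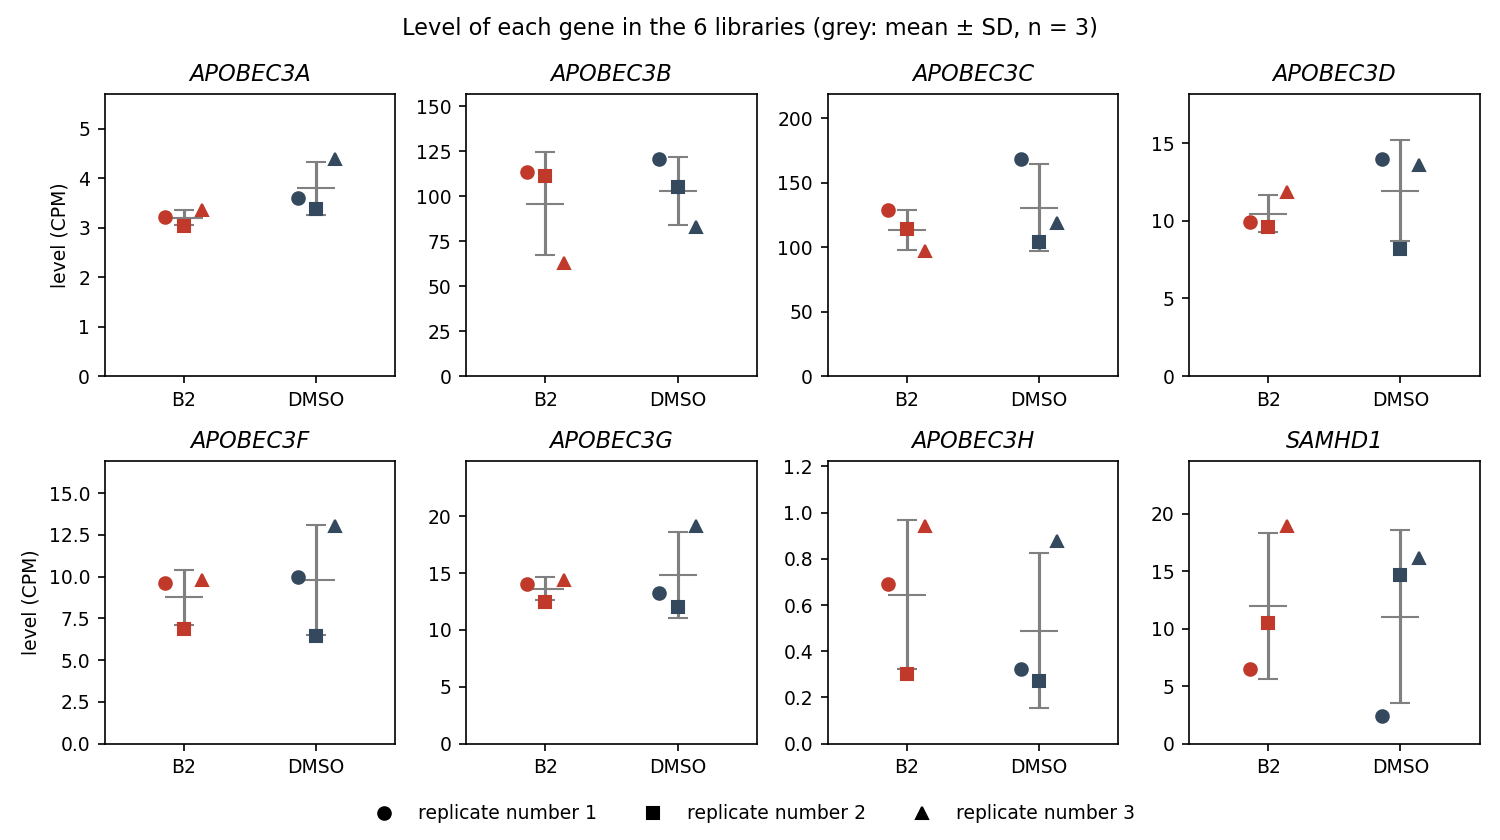
Level of each of the 8 genes (CPM, linear axes from 0) in every library, B2 left of DMSO, with a marker shape for each replicate number; grey bars show group mean ± SD (n = 3). The treatments overlap in every gene but APOBEC3A, and SAMHD1 runs between 2.40 and 18.9 CPM.

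Because both libraries numbered 3 stood apart, the treatment comparison was repeated without them. The fold changes were then -0.16 for APOBEC3A, -0.01 for APOBEC3B, -0.17 for APOBEC3C, -0.18 for APOBEC3D and 0.74 for APOBEC3H. APOBEC3F was at 0.0046, APOBEC3G at 0.07 and SAMHD1 at -0.0029, each with its sign turned. No gene was called and 168 had an unadjusted p below 0.05.

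SAMHD1 ranged further over the libraries than any APOBEC3 gene. Its highest library exceeded its lowest 7.88-fold, the 93.9th percentile of all tested genes, whose median was 2.40-fold. APOBEC3H ranged 3.48-fold and APOBEC3F 2.02-fold. APOBEC3B, APOBEC3C, APOBEC3D, APOBEC3G and APOBEC3A ranged between 1.92-fold and 1.45-fold, and APOBEC3A was at the 7.0th percentile. These ratios include counting error, which is larger for APOBEC3H.

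The replicate numbers, which the labels do not describe, were compared in a fit with treatment and number as terms. Setting number 3 against numbers 1 and 2 was chosen with earlier results of these data known. Its p-values and intervals therefore do not come from a comparison fixed beforehand. What a number marks is not stated, and each comparison rests on 2 libraries against 4 or 2 against 2. Number 3 against numbers 1 and 2 called 575 of 17224 genes (3.34%), 501 of them higher (2.91%) and 74 lower (0.43%). Among the 8 members 0 were called, while 3 had an unadjusted p below 0.05, beside 14.6% of all genes. The members' median log2 difference was 0.33, beside -0.05 over all genes. The count of called genes was 288 without DMSO replicate 3, 304 without B2 replicate 3 and 958 without B2 replicate 1, with 0 APOBEC3 genes among them.

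SAMHD1 had 18.9 and 16.1 CPM in B2 and DMSO replicate 3, against 6.52, 10.5, 2.40 and 14.7 CPM in B2 replicates 1 and 2 and DMSO replicates 1 and 2. Both libraries numbered 3 were above the other 4. The level was 2.36-fold higher in number 3 (95% interval 1.38 to 4.03), a log2 difference of 1.24 (SE 0.35) with an edgeR adjusted p of 0.0952, short of the threshold. It passed in DESeq2 (1.27, adjusted p = 0.016), in limma-voom (1.29, 0.031) and in 4 further settings that kept all libraries, and it missed with library totals as the only scaling (1.20, 0.248), with no filter on low counts (1.27, 0.107) and with no treatment term (1.22, 0.107). Without B2 replicate 1 it was 1.70 (edgeR adjusted p = 0.011) and without DMSO replicate 2 it was 1.66 (0.008), whereas leaving out any other library kept it short of the threshold.

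Number 2 and number 1 also differed in SAMHD1, which had 10.5 and 14.7 CPM in number 2, against 6.52 and 2.40 CPM in number 1. The log2 difference was 1.61 (SE 0.45, interval 0.63 to 2.59), or 3.05-fold, with an edgeR adjusted p of 0.175. This comparison called 9 genes (0.0523%), 5 higher (0.029%) and 4 lower (0.0232%), with 0 members among them; 1 member, SAMHD1, had an unadjusted p below 0.05, beside 18.2% of all genes. The lowest SAMHD1 value, 2.40 CPM, came from DMSO replicate 1, the library whose deviations rose most with GC content. The longest SAMHD1 transcript has a GC content of 44.4%, the 30.6th percentile, beside 49.6% to 54.1% for the APOBEC3 genes. With each library's trend in GC content and length removed, a choice made after seeing the data, the difference of number 2 from number 1 was 0.80 (edgeR adjusted p = 0.282) and that of number 3 from numbers 1 and 2 was 1.38 (0.002). Number 2 exceeded number 1 by 0.88 without DMSO replicate 1 and by 0.88 without DMSO replicate 2, both short of the threshold. Without B2 replicate 1 the difference was 2.29 (edgeR adjusted p = 0.018) and without B2 replicate 2 it was 2.13 (0.013), both past it. The count of called genes moved as well, to between 3 without DMSO replicate 1 and 3965 without B2 replicate 1.

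APOBEC3B went the other way, with 62.9 and 83.1 CPM in number 3, against 113, 111, 121 and 105 CPM in the libraries of numbers 1 and 2. It was below all 4 of them, as were 12.1% of tested genes. The log2 difference was -0.63 (SE 0.26, interval -1.21 to -0.06), with an edgeR adjusted p of 0.284. APOBEC3H had 0.941 and 0.876 CPM in number 3, against 0.691, 0.301, 0.322 and 0.271 CPM in the others, a log2 difference of 1.29 (SE 0.58, interval 0.01 to 2.56) with an edgeR adjusted p of 0.337. APOBEC3G, with 14.4 and 19.1 CPM in number 3, was also above the other 4 libraries, whose values were 14.0, 12.5, 13.3 and 12.03 CPM. In all, 3 of 8 members were above the other 4 libraries, as were 12.3% of tested genes. APOBEC3G differed by 0.37 (SE 0.28) and APOBEC3F by 0.49 (SE 0.28). The other values were 0.30 for APOBEC3D, 0.22 for APOBEC3A and -0.24 for APOBEC3C, with edgeR adjusted p-values of 0.474 to 0.816 over these 5 genes.

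Of the 7 APOBEC3 genes, 6 had lower values in both libraries of number 2 than in both of number 1, while SAMHD1 had higher values in both. That makes 6 of 8 members below, where 28.3% of all tested genes were, and 1 of 8 above, where 34.7% were. Both libraries of number 1 correlated positively with GC content (0.20 and 0.48) and both of number 2 negatively (-0.27 and -0.55). The APOBEC3 transcripts have 49.6% to 54.1% GC and SAMHD1 44.4%, beside a median of 49.7% over tested genes. GC content and number cannot be told apart here, and APOBEC3 genes that share sequence are not separate observations. The largest of these APOBEC3 differences, that of APOBEC3H, was -0.76, and the edgeR adjusted p-values of the 7 APOBEC3 genes ran from 0.357 to 0.904. With library totals as the only scaling, APOBEC3A, APOBEC3B and APOBEC3G turned sign, at 0.10, 0.07 and 0.02. The median of all genes was 0.16 under the main scaling and 0.34 under library totals, so directions here are relative to it.

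**Figure D3:**
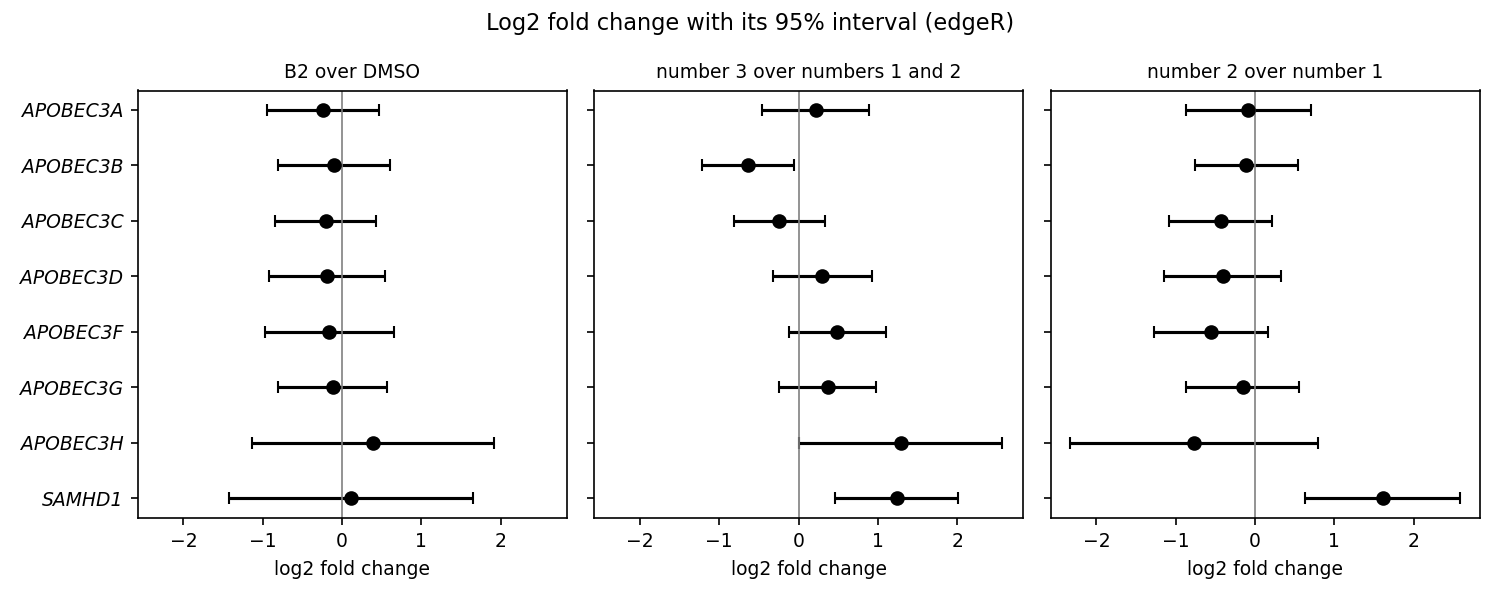
Log2 fold changes of the 8 genes in 3 comparisons, B2 over DMSO, number 3 over numbers 1 and 2, and number 2 over number 1. Points are edgeR estimates and bars 95% intervals, for B2 over DMSO from the fit without the replicate block. SAMHD1 lies at 0.11 for B2 over DMSO and at 1.24 and 1.61 between numbers, and every B2 interval covers 0.

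Other genes of the pathways were read from lists chosen by function, with earlier results of these data known. Over all tested genes, 2.91% were higher in number 3 and 0.43% lower. Interferon reception and signalling, 14 genes, had 6 higher and 0 lower, with a median log2 difference of 0.84 beside -0.05 over all genes. Among them IRF9, a subunit of the interferon-activated transcription factor ISGF3, had 51.2 and 82.0 CPM in number 3, against 5.84, 6.63, 8.35 and 6.50 CPM in the others, a difference of 3.26. IRF7 rose by 3.14 and STAT2 by 1.40. Of 22 other antiretroviral restriction factors, 6 were higher and 0 lower, with a median of 0.56: ISG15, TRIM22, IFITM1, GBP5, RSAD2 and EIF2AK2. ISG15, a ubiquitin-like modifier, had 238 and 168 CPM in number 3, against 18.5, 13.6, 29.1 and 12.4 CPM in the others, a difference of 3.53 (SE 0.29). IFITM1, which blocks membrane fusion of enveloped viruses, rose by 1.99.

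Of 14 known regulators of APOBEC3B, 2 were higher in number 3 and 0 lower, with a median of -0.04. Both, RELB at 1.93 and NFKB2 at 1.12, belong to the noncanonical NF-kB pathway, which is known to raise APOBEC3B, while APOBEC3B itself was at -0.63. The list on SAMHD1 phosphorylation, 9 genes, holds kinases and cyclins, their inhibitors CDKN1A and CDKN1B, and the phosphatase subunits PPP2CA, PPP2R1A and PPP2R2A. It had 0 called and a median of -0.30, with CDKN1A at 0.87, CDKN1B at -0.44 and CCNA2 at -0.51. CDK1, CDK2 and CCNE1 were at -0.18, -0.43 and -0.11. PPP2CA, PPP2R1A and PPP2R2A were at -0.30, -0.18 and -0.35. Since the list mixes kinases with their inhibitors and phosphatase subunits, its median gives no direction for SAMHD1 phosphorylation. Deoxynucleotide supply and breakdown, 15 genes, had 0 called and a median of -0.49. Its thymidylate synthase TYMS was at -0.95 (edgeR adjusted p = 0.088). Uracil excision and base repair, 12 genes that process the uracil APOBEC3 enzymes leave, had 0 called and a median of -0.50. PARP1 was at -0.85 and FEN1 at -0.79. Over all tested genes 3.34% were called, so 0 called in lists of 9 to 15 genes does not set these lists apart.

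Among 12 monocyte and macrophage markers, 9 were tested and 9 were higher in number 3, beside 2.91% of all tested genes. MRC1, MSR1 and C1QB did not pass the filter. The same markers had already set the libraries numbered 3 apart above, so this count is a description and not separate evidence. The 9 tested markers had a median of 5.31. SIGLEC1, a sialic acid receptor of macrophages, was at 7.28 and C1QC, a chain of complement C1q, at 6.94. The part of these cells in the SAMHD1 and APOBEC3 values was not tested. Of 10 progenitor markers 1 was higher, ANPEP. Of 10 T and NK cell markers 4 were tested and 1 was higher, CD2, which had 3.38 and 4.57 CPM in number 3, against 0.20 to 0.74 CPM in the others. Between treatments, TDG, a thymine and uracil glycosylase, was at -0.58 (SE 0.46) and the translesion polymerase REV1 at -0.53 (SE 0.53). In both genes DMSO replicate 2 alone stood high. It had 38.0 CPM of TDG, against 12.2 to 19.6 CPM in the other libraries, and 27.6 CPM of REV1, against 7.45 to 15.1 CPM. TREX1, an exonuclease that clears cytosolic DNA, had 3.60, 3.89 and 26.6 CPM with B2, against 8.24, 4.93 and 5.24 CPM with DMSO. B2 replicate 3 alone stood high, and the fold change of 0.89 had an SE of 0.75. The kinase CDK1 was at -0.28 and its partner cyclin CCNA2 at -0.44. For CCNA2, DMSO replicate 2 again stood high, at 97.0 CPM against 38.9 to 56.7 CPM in the other libraries. With B2 over DMSO, 0 genes were called in every list, and the medians ran from -0.21 for T and NK cell markers to 0.02 for the restriction factors, apart from the epithelial markers at 1.17. With number 2 over number 1, 0 genes were called in every list, beside 0.0523% of all tested genes.

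**Figure D4:**
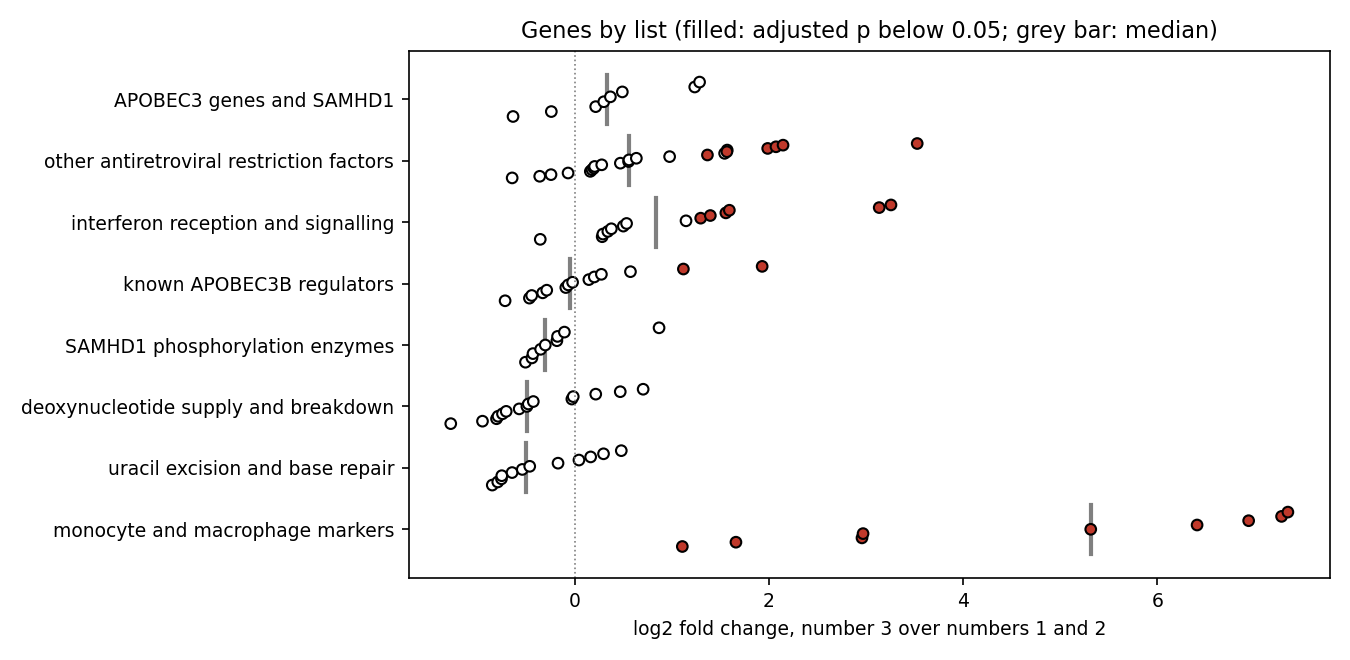
Log2 difference of each tested gene, number 3 over numbers 1 and 2, by list; filled points passed an edgeR adjusted p of 0.05 and grey bars are list medians. Macrophage markers have a median of 5.31, the interferon list 0.84 and the uracil repair list -0.50. The uracil repair list has no filled point, where 3.34% of all tested genes passed.

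The genes most alike a member, by Pearson correlation of log2 CPM over the 6 libraries among 12868 genes of at least 1 CPM, are a description only, since the libraries share depth and composition. For SAMHD1 they were PCOLCE2 (0.995) and CD84 (0.994). APOBEC3B was nearest to NAT10 (0.999) and UCK2 (0.998), and APOBEC3C to SEC13 (0.996) and ADGRA2 (0.995). APOBEC3D was nearest to RGL2 (0.997) and CNP (0.997), APOBEC3F to CHMP4B (0.998) and PCSK7 (0.997), and APOBEC3G to GLTP (0.999) and TADA2B (0.997). APOBEC3A was nearest to ZNF567 (0.989) and COMMD8 (0.976), and APOBEC3H to AKIRIN2 (0.986) and ADAMTS13 (0.974).

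Promoter sequence was read for SAMHD1 and APOBEC3H, the 2 members of 8 found in the RefSeq promoter table (GRCh38.p14), and these are also the members with the widest range over the libraries. Each window holds 250 bases before the start and 50 after it, printed 5′ to 3′ on the gene's strand with CG pairs in capitals.
SAMHD1, chr20:36951659-36951958, minus strand: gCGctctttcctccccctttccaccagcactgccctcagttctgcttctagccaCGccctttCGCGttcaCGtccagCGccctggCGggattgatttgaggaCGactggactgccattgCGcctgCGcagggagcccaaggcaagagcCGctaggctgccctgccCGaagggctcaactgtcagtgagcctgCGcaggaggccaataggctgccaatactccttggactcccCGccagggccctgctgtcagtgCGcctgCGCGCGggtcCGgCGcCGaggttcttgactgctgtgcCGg
APOBEC3H, chr22:39096994-39097293, plus strand: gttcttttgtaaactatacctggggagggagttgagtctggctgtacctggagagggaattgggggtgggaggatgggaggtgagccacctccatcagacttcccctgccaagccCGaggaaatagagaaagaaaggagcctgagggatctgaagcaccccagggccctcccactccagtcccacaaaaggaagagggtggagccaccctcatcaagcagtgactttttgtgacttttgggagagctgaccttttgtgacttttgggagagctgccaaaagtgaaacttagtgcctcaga
The SAMHD1 window had 22 CG pairs and a GC content of 65.7%, and the APOBEC3H window had 1 and 53.3%, beside medians of 14 and 58.7% over all promoters. The interferon-stimulated response element, searched as GAAA, any 2 bases and GAAA again, occurred on either strand in 3.57% of 35116 promoters, and the gamma-activated site, searched as TTCNNNGAA, in 7.66%. Neither occurred in these 2 windows, which says only that the letters are not there.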

How the data were processed

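Total RNA of 6 U937 libraries (B2 and DMSO, 3 each) was TRIzol-extracted, per the labels. The authors deposited expected counts for each Ensembl gene, without normalization. HISAT2 2.0.4 is named in the submitters' processing notes; the sources used here do not give the counter, genome build, gene annotation or strandedness. Values were whole already, so rounding changed nothing. The value 4 occurred 6465 times, against 3144 for 3 and 2022 for 5, so small counts are less exact than their size; an alternative divided all counts by 4. Symbols were found for 60401 of 60612 identifiers, and 0 columns lacked a sample.

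The filter was filterByExpr of edgeR, with a minimum count of 10 and a minimum total of 15. Libraries were scaled with TMM and tested with edgeR 4.0.16 under R 4.3.3 (glmQLFit, glmQLFTest), with Benjamini-Hochberg adjustment over all 17224 genes and a threshold of 0.05. Treatment was the only term for B2 over DMSO; numbers were compared with treatment and number as terms. CPM used TMM-scaled totals. limma 3.58.1 and DESeq2 1.42.0 served alternatives. The scripts were tested on simulated data.

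Deviations from group means correlated within numbers 1, 2 and 3 at 0.21, 0.40 and 0.50, each of the 6 libraries being closest to its own number. The numbers were therefore taken to pair libraries, a pairing that comes from the data, not the labels. Intervals printed for B2 over DMSO come from the fit without it and hold the spread between numbers. With the replicate block every member's SE was smaller, 0.36 in place of 0.67 for SAMHD1 and 0.29 in place of 0.31 for APOBEC3A.

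Members and lists were chosen with earlier results of these data known. The rule for named genes took every member, the 2 members of each list with the smallest p in each of the first 2 comparisons, and the 2 genes most alike each member. The text prints a part. The other called list genes, the other SAMHD1 phosphorylation genes and the marker genes at 0 were named after their values were seen. Sequences come from GENCODE 29 and RefSeq. Proteins were not used here, and a few list genes are not reported here.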

Additional observations from a re-analysis of the deposited data

How the results depend on the processing

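No APOBEC3 gene passed the threshold in any comparison under any setting run. For B2 over DMSO, 125 of 135 member values kept their direction over 17 settings and 10 changed sign, and 0 passed the threshold. Without both libraries numbered 3, APOBEC3F was 0.00457, APOBEC3G 0.0666 and SAMHD1 -0.00286. Leaving out 1 library at a time gave -0.26 to 0.125 for APOBEC3B, -0.38 to 0.0266 for APOBEC3C, -0.41 to 0.0939 for APOBEC3F, -0.27 to 0.11 for APOBEC3G, 0.01 to 1.12 for APOBEC3H and -0.38 to 0.49 for SAMHD1. The count of called genes was 0, against 1 in DESeq2, 2 with the replicate block and the GC and length trends removed, and 0 to 1 when 1 library was left out (1 without B2 replicate 2). The replicate block alone changed no call.

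For number 3 over numbers 1 and 2, the 575 called genes became 1011 in DESeq2, 1030 with counts divided by 4, 1161 with the trends removed, and 288 (without DMSO replicate 3) to 958 (without B2 replicate 1) when 1 library was left out, with 304 without B2 replicate 3. SAMHD1 passed with RLE factors (1.27, edgeR adjusted p = 0.026), the stricter filter (1.23, 0.035), DESeq2 (1.27), limma-voom (1.29), counts divided by 4 (1.247) and the trends removed (1.38). Leaving out 1 library gave 0.99 to 1.70. For number 2 over number 1, the 9 called genes became 21 with RLE factors, 1 with library totals, 16 with the stricter filter, 610 in DESeq2, 1188 with counts divided by 4, 2 with no treatment term, and 3 (without DMSO replicate 1) to 3965 (without B2 replicate 1). SAMHD1 passed there in DESeq2 (1.49), with counts divided by 4 (1.49), and without B2 replicate 1 (2.29) or 2 (2.13). With library totals APOBEC3A was 0.0967, APOBEC3B 0.0717 and APOBEC3G 0.0249. With the longest transcript as length, APOBEC3A averaged 2.37 CPM per kb, APOBEC3G 5.12 and SAMHD1 2.10. The causes were not tested. With 3 libraries a group, the intervals of the fold changes leave changes of the size printed beside each gene undetected; APOBEC3H is limited further by its 18 to 68 counts.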
